A study of Mus musculus with 9 samples.

Results

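Granulocytes and monocytes develop from bone marrow stem cells through stages that each have characteristic transcripts, and 34 such genes were followed in sorted haematopoietic stem cells (HSCs) of mice. The list was assembled by function: lineage factors, colony-stimulating factor receptors, primary granule and promyelocyte genes, myeloid surface and lysozyme genes, later granule genes and mature neutrophil genes. Of the 34 genes, 33 had a row among the 46626 named genes of the expression table. Irf8 was not analysed here. HSCs came from the bone marrow of C57BL/6 mice in 3 groups of 3 libraries, each made from about 2000 sorted cells. Old mice given BRL37344, an agonist of the β3-adrenergic receptor, received 2.4 mg/kg per day from an osmotic pump for 12 weeks, with a second pump after 6 weeks. Old mice given saline and young mice given saline carried pumps for the same time. At implantation the old mice were 15 to 20 months of age and the young mice 2 months. The series asks how loss of adrenergic nerves in the marrow relates to ageing of the HSC niche. Nothing in the labels ties the 3 libraries per group to different animals, and p-values therefore describe spread between libraries that may be technical.

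Primary granule proteins such as myeloperoxidase and neutrophil elastase are made at the promyelocyte stage, mainly under control of the transcription factors PU.1 (encoded by Spi1) and C/EBPα. Secondary and tertiary granule proteins such as lactoferrin, cathelicidin and the collagenases follow in later cells, under C/EBPε. Mature neutrophils are rich in the calcium-binding proteins S100A8 and S100A9. An HSC is not expected to make most of these proteins, although priming of some myeloid genes at low level is known in stem and progenitor cells.

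Levels are given as RPKM, reads per 1000 bases of transcript and 1000000 mapped reads. Steps in the low values implied depths of 12.1 to 44.8 (in units of 1000000 reads) per library, so low genes are less precise in the shallow ones. Between 12575 and 12965 genes reached 1 RPKM. Of 15 HSC identity genes, 14 or 15 reached 1 RPKM in each library, with summed levels of 1463 to 2014 RPKM in BRL37344 old, 1529 to 1691 RPKM in saline old and 1674 to 1909 RPKM in saline young. A list of 13 neutrophil markers, all of them members, summed to 179, 5513 and 1865 RPKM in BRL37344 old libraries 1 to 3. The same sum was 691 to 923 RPKM in saline old and 1066 to 18827 RPKM in saline young. BRL37344 old library 2 and saline young library 3 therefore stood highest, and BRL37344 old library 1 lowest. Calls of members are given with and without the 2 highest libraries, and with each library left out. Counts of separated members, orders of libraries and ratios between genes are given for all libraries only. The 12 monocyte and macrophage markers, which include the members Ly6c2 and Csf1r, summed to 37.0, 177 and 101 RPKM in BRL37344 old, 49.3 to 82.6 RPKM in saline old and 79.1, 189 and 387 RPKM in saline young. Fewer cells of a type and less RNA per cell cannot be told apart in such bulk libraries, and the part of mature cells in the results was not tested.

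The promoters of 4 members on which the results turn are shown with the motif GAGGAA, the core of PU.1 sites, in capitals on either strand (TTCCTC on the reverse strand). Each runs from 250 bases before to 50 after the annotated start on the forward strand, from RefSeq on GRCm38.p6, the same sequence as mm10. Mpo and Elane ranged widely between libraries. Prtn3, which lies 3137 bases upstream of Elane, ranged 2.39-fold, less than most members. The median was 1.95-fold over tested genes with signal in every library. S100a8 was the most abundant late gene.
Mpo, chr11:87793534-87793833: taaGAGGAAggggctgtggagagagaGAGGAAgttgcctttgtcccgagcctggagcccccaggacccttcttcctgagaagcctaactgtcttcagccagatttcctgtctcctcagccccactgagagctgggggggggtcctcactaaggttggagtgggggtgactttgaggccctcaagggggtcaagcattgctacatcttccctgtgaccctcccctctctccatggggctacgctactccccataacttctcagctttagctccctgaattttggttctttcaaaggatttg
Elane, chr10:79886062-79886361: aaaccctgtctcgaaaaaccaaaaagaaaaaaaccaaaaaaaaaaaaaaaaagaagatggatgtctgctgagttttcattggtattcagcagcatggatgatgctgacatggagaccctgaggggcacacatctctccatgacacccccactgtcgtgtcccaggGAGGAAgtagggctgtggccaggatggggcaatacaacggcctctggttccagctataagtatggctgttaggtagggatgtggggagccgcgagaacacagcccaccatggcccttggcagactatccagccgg
Prtn3, chr10:79879417-79879716: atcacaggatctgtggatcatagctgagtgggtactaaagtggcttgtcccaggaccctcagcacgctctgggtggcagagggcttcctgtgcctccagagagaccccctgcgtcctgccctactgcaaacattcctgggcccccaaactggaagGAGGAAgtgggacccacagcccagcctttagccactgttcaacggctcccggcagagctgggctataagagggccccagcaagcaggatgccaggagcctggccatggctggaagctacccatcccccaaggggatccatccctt
S100a8, chr3:90668821-90669120: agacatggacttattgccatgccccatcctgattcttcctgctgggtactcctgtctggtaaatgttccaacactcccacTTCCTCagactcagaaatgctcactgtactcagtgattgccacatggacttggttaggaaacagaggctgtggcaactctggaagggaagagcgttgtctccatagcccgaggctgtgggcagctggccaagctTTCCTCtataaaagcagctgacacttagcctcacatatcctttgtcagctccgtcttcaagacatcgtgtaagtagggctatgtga
Mpo and S100a8 each held 2 such matches, and Elane and Prtn3 1 each. None of the 4 windows held TTGCNNAA, a form of the C/EBP motif, on either strand. GAGGAA was present in at least 1 window of 18 of the 27 members with a promoter in RefSeq, against 31.2% of 27025 genes with windows of the same length. TTGCNNAA was present for 12 of the 27 members, against 12.2% of genes. These matches describe letters in a window and do not establish binding.

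Most members varied far more between libraries than most genes did. For the 25 tested members with signal in every library, the highest library exceeded the lowest by a median of 83.2-fold, against 1.95-fold over 12918 tested genes with signal in every library. The range was under 3-fold for 5 members, Spi1, Csf2ra, Csf3r, Prtn3 and Lyz2, and for 73.0% of those genes. It was over 50-fold for 15 members and for 1.04% of those genes. Saline young library 3 held the highest value for 23 of the 33 members and BRL37344 old library 2 for 5. BRL37344 old library 1 held the lowest value, alone or tied with other libraries without signal, for 18 members. The share of all genes highest or lowest in each library was not computed, so these counts have no background.

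**Figure D1:**
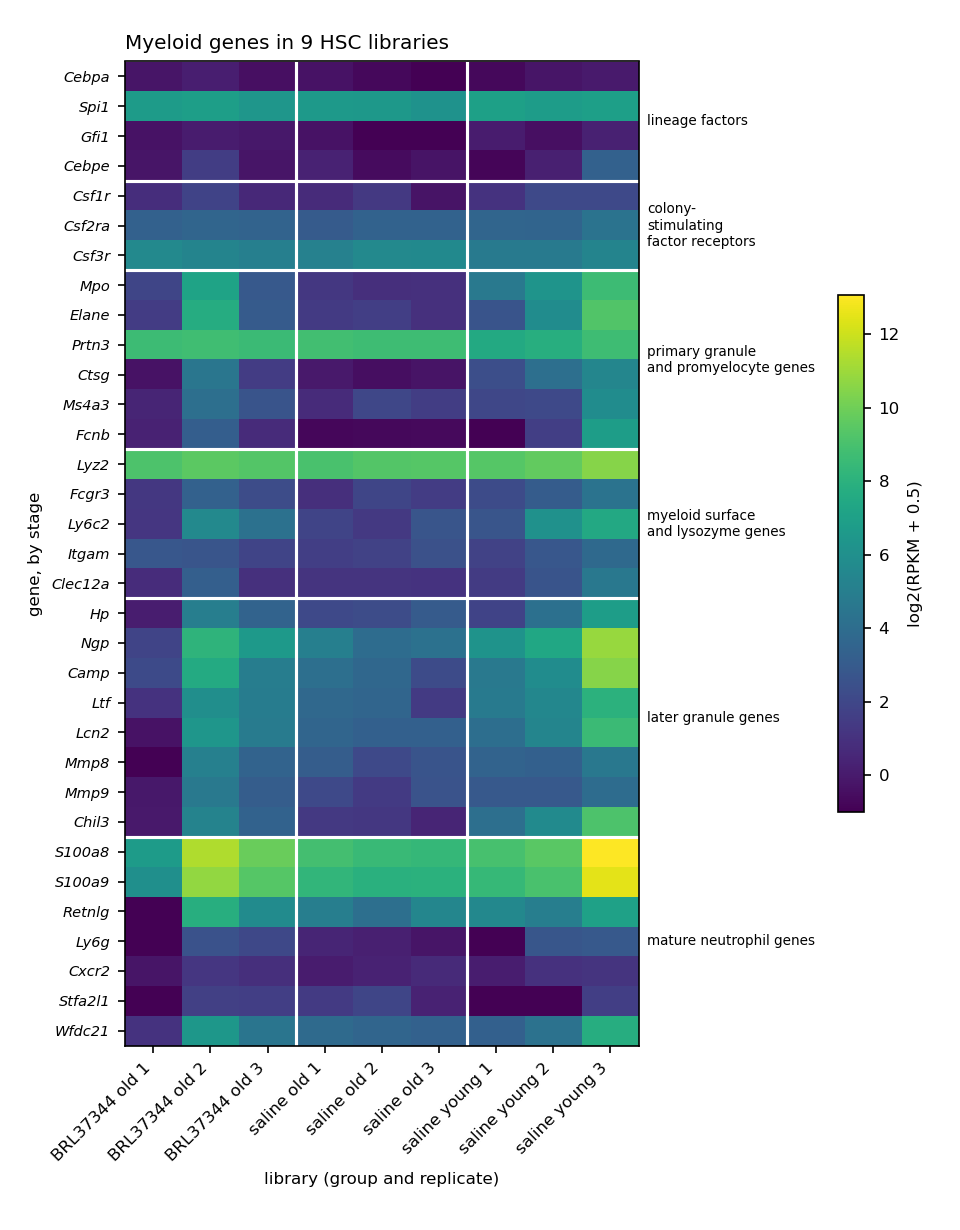
Heat map of log2(RPKM + 0.5) for the 33 members with a row (vertical, ordered by stage) in the 9 libraries (horizontal, 3 per group). Spi1, Prtn3 and Lyz2 are bright in every library, while most granule and neutrophil genes are brightest in saline young library 3, next in BRL37344 old library 2, and darkest in BRL37344 old library 1.

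The lineage factors had 1 abundant member. Spi1, the gene of PU.1, stood at 107, 117 and 84.2 RPKM in BRL37344 old libraries 1 to 3, at 99.1, 90.8 and 71.4 RPKM in saline old, and at 126, 110 and 124 RPKM in saline young. All saline old values were below all saline young values, and BRL37344 old overlapped both. Cebpa, which encodes C/EBPα, was at 0.357, 0.637 and 0.260 RPKM in BRL37344 old, 0.302, 0.120 and 0.0125 RPKM in saline old, and 0.126, 0.365 and 0.521 RPKM in saline young. It never reached 1 RPKM, and neither did Gfi1, a repressor that favours granulocytes over monocytes, which ranged from 0.292 to 0.538 RPKM in BRL37344 old, 0.000916 to 0.309 RPKM in saline old and 0.239 to 0.736 RPKM in saline young. Cebpe, the C/EBPε gene of later granulocytes, had 0.361, 2.43 and 0.364 RPKM in BRL37344 old, 0.754, 0.170 and 0.325 RPKM in saline old, and 0.0791, 0.693 and 9.90 RPKM in saline young. Cebpe passed 1 RPKM in BRL37344 old library 2 and saline young library 3 alone. Cebpa, Gfi1 and Cebpe were below the level required for testing, which was 1 RPKM in at least 3 libraries.

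Among the receptors, Csf3r, the receptor of granulocyte colony-stimulating factor, had 49.5, 39.97 and 33.9 RPKM in BRL37344 old, 36.1, 48.0 and 50.2 RPKM in saline old, and 26.7, 27.7 and 40.1 RPKM in saline young. As for Prtn3 and Stfa2l1, its mean was highest in saline old, at 44.8 ± 7.58 RPKM against 31.5 ± 7.43 RPKM in saline young (SD, n = 3 each), with overlapping libraries. Csf2ra, the α chain of the receptor for granulocyte-macrophage colony-stimulating factor, ranged from 9.80 to 11.4 RPKM in BRL37344 old, 7.71 to 10.4 RPKM in saline old and 11.1 to 20.2 RPKM in saline young. Csf1r, the macrophage colony-stimulating factor receptor, was low, at 1.30, 3.01 and 1.02 RPKM in BRL37344 old, 1.17, 2.00 and 0.339 RPKM in saline old, and 1.62, 3.87 and 3.78 RPKM in saline young. Csf1r did not separate any 2 groups fully.

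The primary granule genes divided into Prtn3 and the rest. Mpo, which encodes myeloperoxidase (chr11:87793784-87804412), had 3.27, 142 and 7.11 RPKM in BRL37344 old, 1.89, 1.35 and 1.44 RPKM in saline old, and 24.97, 77.4 and 405 RPKM in saline young. The saline old libraries lay within a narrow band below every other library. Elane, the neutrophil elastase gene (chr10:79886312-79888216), had 2.34, 206 and 7.74 RPKM in BRL37344 old, 2.09, 2.53 and 1.44 RPKM in saline old, and 5.93, 57.3 and 614 RPKM in saline young. Ctsg, which encodes the granule protease cathepsin G, had 0.311, 22.3 and 2.33 RPKM in BRL37344 old, 0.488, 0.220 and 0.330 RPKM in saline old, and 4.81, 16.8 and 43.0 RPKM in saline young. For both, each saline old value was below each saline young value, and BRL37344 old reached from the saline old range into the saline young range.
Prtn3, the proteinase 3 gene (chr10:79879667-79883174), had 404, 435 and 391 RPKM in BRL37344 old, 448, 414 and 412 RPKM in saline old, and 187, 226 and 423 RPKM in saline young. Saline young library 3, the highest library for Mpo and Elane, was near the old libraries for Prtn3, and the other 2 saline young libraries lay below all 6 old ones. Per 100 RPKM of its neighbour Prtn3, Elane had 0.580, 47.4 and 1.98 RPKM in BRL37344 old, 0.466, 0.612 and 0.349 RPKM in saline old, and 3.17, 25.3 and 145 RPKM in saline young. Ms4a3, a membrane protein gene of granulocyte-monocyte progenitors, ranged from 0.865 to 17.4 RPKM in BRL37344 old, 1.19 to 3.53 RPKM in saline old and 3.43 to 58.1 RPKM in saline young. Fcnb, the ficolin B gene, had 0.761, 8.59 and 1.19 RPKM in BRL37344 old, 0.0974, 0.120 and 0.148 RPKM in saline old, and no signal, 2.51 and 115 RPKM in saline young. Fcnb and Mpo were the members whose BRL37344 old libraries all lay above all saline old libraries.

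**Figure D2:**
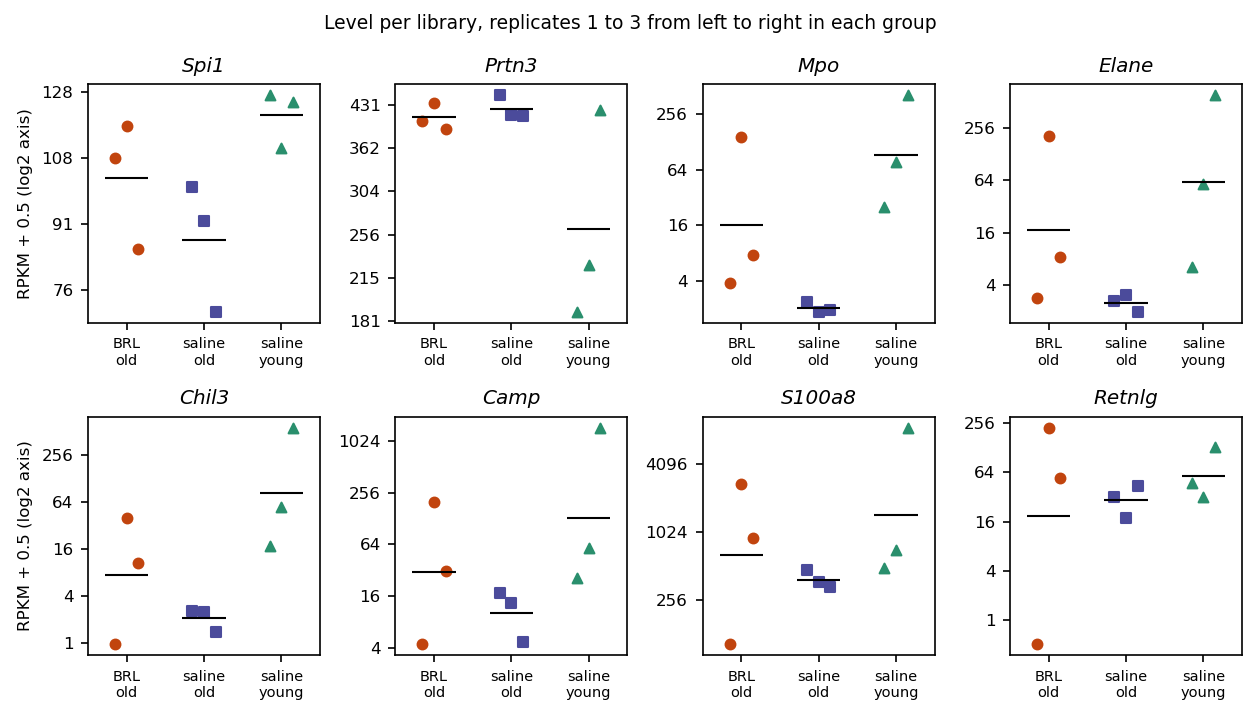
Level of 8 members (vertical, RPKM + 0.5 on a log2 axis, a separate scale in each panel) in the 3 groups, with 1 point per library and a line at the mean of the log2 values. Prtn3 and Spi1 span under 3-fold, whereas Mpo, Elane, Chil3, Camp and S100a8 are highest in saline young library 3, and Retnlg is highest in BRL37344 old library 2 and without signal in BRL37344 old library 1.

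Lyz2, the lysozyme gene of myeloid cells, was the most abundant surface or lysozyme member, at 567, 746 and 634 RPKM in BRL37344 old, 518, 641 and 660 RPKM in saline old, and 654, 826 and 1485 RPKM in saline young. Its groups overlapped. Ly6c2, a surface antigen of inflammatory monocytes, had 1.87, 49.3 and 18.4 RPKM in BRL37344 old, 3.15, 1.99 and 6.14 RPKM in saline old, and 5.94, 68.6 and 178 RPKM in saline young. Its value is uncertain to the extent that reads are shared with the near-identical Ly6c1. Fcgr3, a low-affinity IgG receptor, had 1.93, 9.70 and 4.26 RPKM in BRL37344 old, 1.39, 3.35 and 2.32 RPKM in saline old, and 4.11, 7.93 and 20.3 RPKM in saline young. Clec12a, an inhibitory lectin receptor of myeloid cells, had 1.25, 9.27 and 1.42 RPKM in BRL37344 old, 1.64, 1.68 and 1.55 RPKM in saline old, and 2.24, 5.72 and 24.1 RPKM in saline young. For Fcgr3 and Clec12a no saline old library reached any saline young library. Itgam, which encodes the integrin CD11b, ranged from 3.25 to 6.66 RPKM in BRL37344 old, 2.52 to 5.17 RPKM in saline old and 2.88 to 13.4 RPKM in saline young, with overlap.

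The later granule genes spread widely within BRL37344 old and saline young. Ngp, the neutrophilic granule protein gene, had 3.24, 280 and 98.1 RPKM in BRL37344 old, 32.9, 15.5 and 18.4 RPKM in saline old, and 75.3, 167 and 1908 RPKM in saline young. Camp, which encodes the antimicrobial peptide cathelicidin, had 3.92, 197 and 31.0 RPKM in BRL37344 old, 16.9, 12.7 and 4.19 RPKM in saline old, and 25.6, 57.8 and 1460 RPKM in saline young. Chil3, the chitinase-like protein Ym1, had 0.463, 39.6 and 10.2 RPKM in BRL37344 old, 2.05, 1.98 and 0.881 RPKM in saline old, and 17.1, 53.7 and 565 RPKM in saline young. In each of these 3 genes saline old lay wholly below saline young, and BRL37344 old held the lowest library of all beside one of the 3 highest.
Ltf (lactoferrin) had 1.59, 61.1 and 29.6 RPKM in BRL37344 old, 13.2, 11.7 and 2.09 RPKM in saline old, and 27.7, 45.4 and 269 RPKM in saline young. Lcn2 (lipocalin 2, which binds bacterial siderophores) had 0.306, 83.4 and 28.7 RPKM in BRL37344 old, 11.3, 9.59 and 9.28 RPKM in saline old, and 16.8, 42.7 and 392 RPKM in saline young. Hp (haptoglobin) had 0.601, 31.4 and 10.8 RPKM in BRL37344 old, 3.88, 4.38 and 7.79 RPKM in saline old, and 3.08, 18.05 and 113 RPKM in saline young. Hp alone of these genes overlapped between saline old and saline young, through saline young library 1.
Mmp8, the neutrophil collagenase gene, had no signal, 34.03 and 10.7 RPKM in BRL37344 old, 8.36, 3.73 and 5.84 RPKM in saline old, and 10.7, 9.35 and 24.3 RPKM in saline young. Mmp9, the gelatinase B gene, had 0.440, 25.2 and 8.56 RPKM in BRL37344 old, 3.77, 2.10 and 5.47 RPKM in saline old, and 7.25, 7.16 and 15.1 RPKM in saline young. Both were highest in BRL37344 old library 2 and not in saline young library 3.

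S100a8 (chr3:90669071-90670034) and S100a9 (chr3:90692630-90695721), the genes of the calprotectin subunits, were the most abundant of the mature neutrophil members. S100a8 had 104, 2755 and 913 RPKM in BRL37344 old, 476, 367 and 337 RPKM in saline old, and 498, 714 and 8654 RPKM in saline young. S100a9 had 64.0, 1752 and 661 RPKM in BRL37344 old, 310, 244 and 253 RPKM in saline old, and 347, 530 and 5741 RPKM in saline young. For both, saline old lay below saline young, but the highest saline old and lowest saline young libraries were close, at 476 and 498 RPKM of S100a8.
Retnlg, which encodes resistin-like gamma, had no signal, 227 and 54.8 RPKM in BRL37344 old, 31.9, 17.0 and 43.7 RPKM in saline old, and 46.9, 31.6 and 132 RPKM in saline young. The implied depth (in units of 1000000 reads) was 15.9 in BRL37344 old library 1 and 15.3 in saline old library 1. Whether depth bears on the missing Retnlg signal in BRL37344 old library 1 was not tested. Wfdc21, a whey acidic protein family gene of neutrophils, had 1.61, 87.7 and 22.01 RPKM in BRL37344 old, 14.3, 11.6 and 9.71 RPKM in saline old, and 9.50, 19.2 and 220 RPKM in saline young. The groups overlapped for Retnlg and Wfdc21.
Ly6g, the surface antigen of mature neutrophils, had no signal, 5.39 and 3.66 RPKM in BRL37344 old, 0.894, 0.661 and 0.358 RPKM in saline old, and no signal, 6.24 and 7.15 RPKM in saline young. Cxcr2, a chemokine receptor that draws neutrophils out of the marrow, ranged from 0.378 to 1.85 RPKM in BRL37344 old, 0.553 to 1.09 RPKM in saline old and 0.596 to 1.67 RPKM in saline young. Stfa2l1, a stefin of a family of near-identical copies whose reads may be shared, reached at most 2.65 RPKM in BRL37344 old, 3.31 RPKM in saline old and 2.505 RPKM in saline young. These 3 genes were low in all groups.

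HSCs of saline old mice had lower levels of most members than HSCs of saline young mice, but no single member passed the test. Mpo averaged 1.56 ± 0.292 RPKM in saline old and 169 ± 206 RPKM in saline young (SD, n = 3 each), a difference of -5.50 ± 1.46 in log2(RPKM + 0.5) (SE; limma adjusted p = 0.146). Ctsg differed by -4.24 ± 1.11 (limma adjusted p = 0.116), Chil3 by -5.31 ± 1.60 (limma adjusted p = 0.192), Elane by -4.62 ± 1.99 (limma adjusted p = 0.336) and Camp by -3.67 ± 1.82 (limma adjusted p = 0.401). For S100a8 the difference was -1.90 ± 1.42 (limma adjusted p = 0.597) and for Retnlg -1.003 ± 2.06 (limma adjusted p = 0.875). The more stable genes differed less: Spi1 by -0.47 ± 0.15 (limma adjusted p = 0.192) and Lyz2 by -0.62 ± 0.26 (limma adjusted p = 0.292).
Fcgr3 differed by -1.77 (limma adjusted p = 0.214), Ly6c2 by -3.45 (0.324), Clec12a by -1.82 (0.327) and Csf1r by -1.17 (0.303). Csf3r and Prtn3 had the opposite sign, at 0.51 ± 0.20 (limma adjusted p = 0.279) and 0.70 ± 0.24 (limma adjusted p = 0.212).
In limma 0 of the 30 tested members were called at an adjusted p of 0.05, against 1.58% of 13516 genes tested. At an unadjusted p under 0.05 there were 11 members, 9 lower and 2 higher in saline old, against 15% of genes. The fitted difference was negative for 27 of 30 members with a median of -1.79, and the median over all genes was -0.02. Complete separation with saline old below saline young was seen for 16 of the 30 tested members, against 10.9% of genes tested. In the other direction it was seen for 0 members, against 9.39%. The 16 included 9 of the 15 late genes. Members share their libraries and are not independent of one another.
Calls depended on single libraries. Without BRL37344 old library 2, which enters through the shared spread, Mpo and Ctsg fell in saline old (limma adjusted p = 0.0180 and 0.0280). Without saline young library 3 the median difference of the members was -0.74 and Prtn3 rose by 1.04 in saline old (limma adjusted p = 0.00468).

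**Figure D3:**
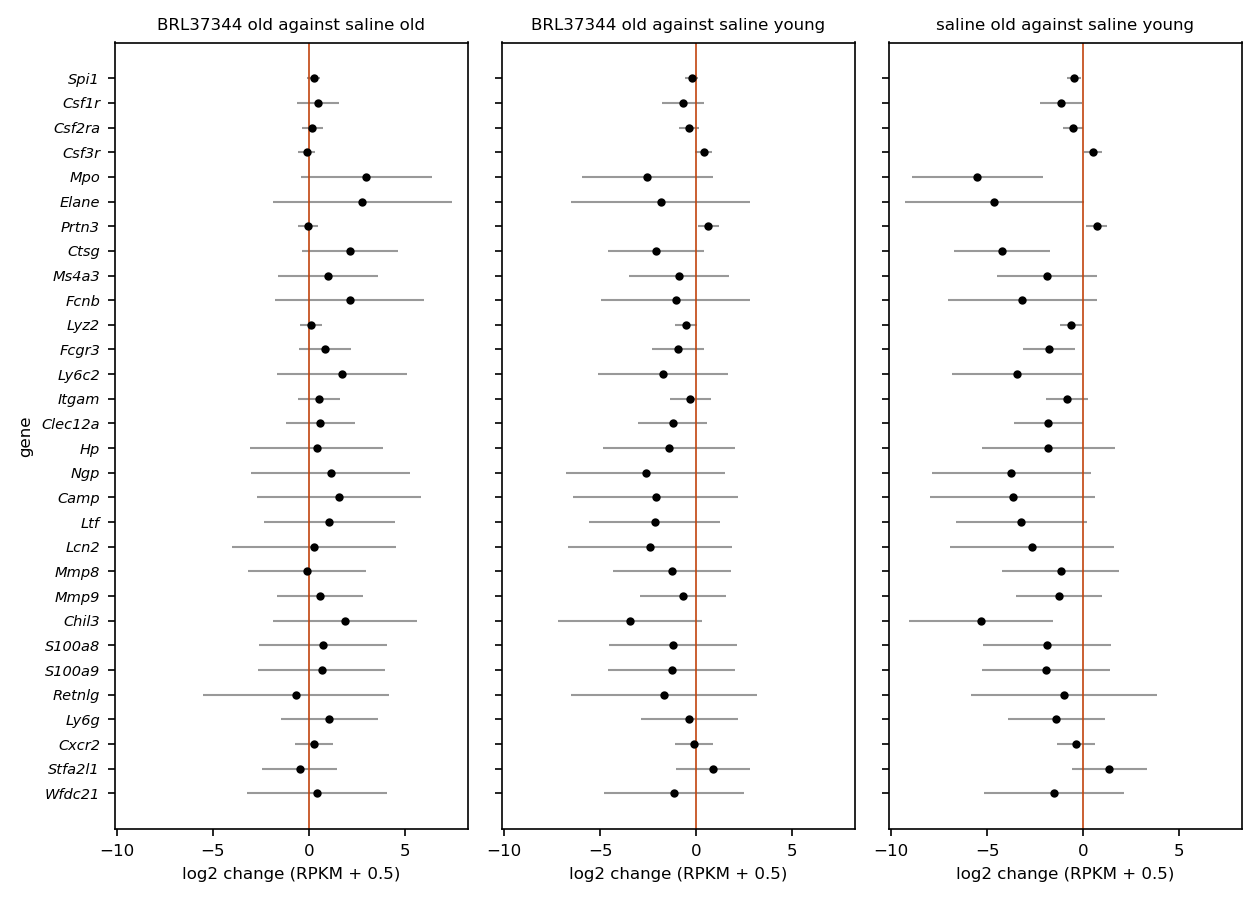
Fitted difference in log2(RPKM + 0.5) (horizontal, shared scale) for the 30 tested members (vertical) in 3 comparisons, with bars for the 95% interval from limma. Most points lie left of 0 in both comparisons with saline young and right of 0 in BRL37344 old against saline old, with wide bars for granule genes and narrow bars for Spi1, Csf3r, Prtn3 and Lyz2.

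BRL37344 old HSCs against saline old HSCs addressed whether the β3-adrenergic agonist changed these genes in old mice. Mpo averaged 50.8 ± 79.1 RPKM in BRL37344 old and 1.56 ± 0.292 RPKM in saline old (SD, n = 3 each), and S100a8 averaged 1257 ± 1359 RPKM in BRL37344 old and 393 ± 73.0 RPKM in saline old. The difference for Mpo was 2.97 ± 1.46 in log2(RPKM + 0.5), with a 95% interval of -0.45 to 6.38 (limma adjusted p = 0.839). It was 2.16 ± 1.11 for Ctsg (limma adjusted p = 0.839), 0.72 ± 1.42 for S100a8 with an interval of -2.61 to 4.05 (limma adjusted p = 0.938), and -0.67 ± 2.06 for Retnlg (limma adjusted p = 0.961). Prtn3 differed by -0.05 ± 0.24, with an interval of -0.59 to 0.48 (limma adjusted p = 0.976).
None of the 30 tested members passed, as was the case for 0% of the 13516 genes, and 0 members had an unadjusted p under 0.05, against 5.64% of genes. The sign was positive for 25 members with a median of 0.58, and the median over all genes was 0.01. Mpo and Fcnb were 2 of the 30 tested members with BRL37344 old wholly above saline old, against 4.82% of genes tested, and 0 were wholly below, against 5.28%.
Library 2 or library 1 of BRL37344 old set the sign for several members. Without library 2 the median was 0.03 with 15 of 30 members negative and S100a8 at -0.34, and without library 1 the median was 1.93 with S100a8 at 2.03 and Retnlg at 1.94.

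BRL37344 old HSCs against saline young HSCs gave no fully separated member in either direction, against 7.29% of genes tested higher and 7.88% lower. Chil3 averaged 16.7 ± 20.4 RPKM in BRL37344 old and 212 ± 306 RPKM in saline young (SD, n = 3 each), a difference of -3.45 ± 1.60 in log2(RPKM + 0.5) (limma adjusted p = 0.559). Mpo differed by -2.54 ± 1.46 (limma adjusted p = 0.664) and S100a8 by -1.18 ± 1.42 (limma adjusted p = 0.856). Prtn3 averaged 410 ± 22.5 RPKM in BRL37344 old and 279 ± 126 RPKM in saline young, a difference of 0.65 ± 0.24 (limma adjusted p = 0.403).
In limma 0 of 30 members were called, against 0.769% of genes, and Prtn3 alone had an unadjusted p under 0.05, against 9.38% of genes. The sign was negative for 27 members with a median of -1.15, and the median over all genes was -0.04. Both comparisons with saline young share those 3 libraries, and both comparisons of BRL37344 old share its libraries. Without saline young library 3, Prtn3 rose by 0.99 in BRL37344 old (limma adjusted p = 0.00943) and S100a8 stood at 0.10. Without BRL37344 old library 1, S100a8 stood at 0.12.

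Early and late genes were then set against each other by library. The 13 early members (lineage factors, receptors and primary granule genes) had mean log2(RPKM + 0.5) of 2.18, 4.22 and 2.64 in BRL37344 old libraries 1 to 3, 2.06, 2.05 and 1.85 in saline old, and 2.57, 3.43 and 5.18 in saline young. The 15 late members (later granule and mature neutrophil genes) had 0.96, 6.01 and 4.60 in BRL37344 old, 3.55, 3.23 and 3.06 in saline old, and 3.78, 4.73 and 7.25 in saline young. By these means the order of libraries was the same in both sets apart from BRL37344 old library 1, which ranked sixth for the early set and last for the late set. In that library every late member was at its lowest value, 15 of 15, counting ties without signal for Ly6g and Stfa2l1, whereas 1 of the 13 early members was. The share of all genes lowest in that library was not computed. By stage, BRL37344 old library 1 had a mean of 0.78 for the primary granule genes without Prtn3, against 0.51 to 0.67 in saline old, and of 0.47 for the later granule genes, against 2.49 to 3.15 in saline old. Within the early set, the lineage factors and the receptors each gave another order. For lineage factors the mean was 1.59 in saline old library 1, against 1.42 in BRL37344 old library 3 and 1.41 in saline young library 1. For receptors it was 3.46 in saline old library 2, against 3.06 in BRL37344 old library 3.

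**Figure D4:**
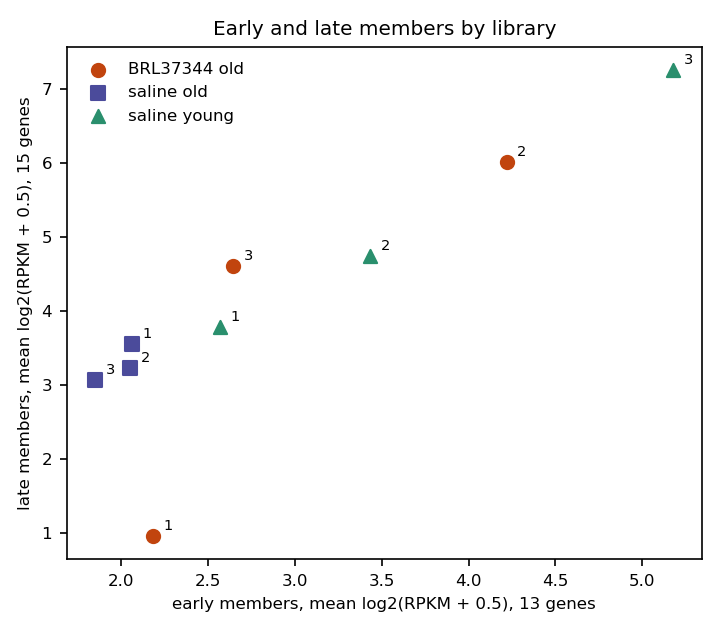
Mean log2(RPKM + 0.5) of the 13 early members (horizontal) and the 15 late members (vertical), with 1 point per library marked by replicate number. Libraries line up from saline old at the lower left to saline young library 3 at the upper right, and BRL37344 old library 1 lies below the others on the late axis.

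Correlations were computed for 8 pairs of genes over the 9 libraries on log2(RPKM + 0.5), with exact permutation tests (two-sided, adjusted over the 8 pairs). Mpo and Elane, both primary granule genes, had r = 0.963 (exact permutation adjusted p = 0.000353) and rho = 0.883 (exact adjusted p = 0.00820). Ngp and S100a8, both late, had r = 0.966 (exact permutation adjusted p = 0.000198) and rho = 0.967 (exact adjusted p = 0.00132). Across stages, Mpo and S100a8 had r = 0.826 (exact permutation adjusted p = 0.00579) and rho = 0.833 (exact adjusted p = 0.0165), and Mpo and Ngp had r = 0.887 (exact permutation adjusted p = 0.00185) and rho = 0.883 (exact adjusted p = 0.00820).
Without the 2 libraries farthest from the median of the first gene, Mpo with Elane had r = 0.919 (exact permutation adjusted p = 0.0254, n = 7) and Ngp with S100a8 r = 0.871 (exact permutation adjusted p = 0.0191, n = 7). Mpo with S100a8 had r = 0.454 (exact permutation adjusted p = 0.313, n = 7) and Mpo with Ngp r = 0.724 (exact permutation adjusted p = 0.129, n = 7), and rho was 0.643 for Mpo with S100a8 and 0.750 for Mpo with Ngp. The libraries left out with Mpo as the first gene were saline young library 3 and BRL37344 old library 2, and with Ngp saline young library 3 and BRL37344 old library 1. The relations between stages did not pass without those libraries. Before adjustment, the smallest exact permutation p possible was 0.000198 with 7 libraries and 2.76e-06 with 9. Within groups, as deviations from group means, r was 0.895 for Mpo with S100a8, 0.868 for Mpo with Ngp, 0.979 for Mpo with Elane and 0.985 for Ngp with S100a8, with exact permutation adjusted p between 0.0741 and 0.111.
Regulators and receptors were paired with Mpo or S100a8 in the same way. Cebpa with Mpo had r = 0.718 (exact permutation adjusted p = 0.0430) and rho = 0.817 (exact adjusted p = 0.0172), and r = 0.583 without BRL37344 old library 2 and saline old library 3, the farthest for Cebpa (exact permutation adjusted p = 0.274, n = 7), at Cebpa levels under 1 RPKM. Cebpa with S100a8 had r = 0.590 (exact permutation adjusted p = 0.105) and rho = 0.633 (exact adjusted p = 0.0869), and r = 0.490 without the same 2 libraries. Csf1r with Mpo had r = 0.807 (exact permutation adjusted p = 0.0146) and rho = 0.650 (exact adjusted p = 0.0869), and r = 0.814 without saline old library 3 and saline young library 2 (exact permutation adjusted p = 0.0788, n = 7), so that saline young library 3 and BRL37344 old library 2 remained in this value. Csf3r with S100a8 had r = -0.230 (exact permutation adjusted p = 0.560) and rho = -0.500 (exact adjusted p = 0.178), and r = -0.513 without saline young libraries 1 and 2.

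The make-up of the myeloid signal was compared by setting each gene against S100a8 in the same library. These ratios were chosen after the values were seen and carry no test. S100a9 stayed close to S100a8, at 61.6 to 75.1 RPKM per 100 RPKM of S100a8 in all libraries. Mpo had 3.15, 5.16 and 0.779 RPKM per 100 RPKM of S100a8 in BRL37344 old, 0.398, 0.368 and 0.426 in saline old, and 5.02, 10.8 and 4.68 in saline young. Chil3 had 0.446, 1.44 and 1.11 in BRL37344 old, 0.430, 0.538 and 0.261 in saline old, and 3.43, 7.52 and 6.53 in saline young. For Mpo and Chil3 the saline old libraries were lower relative to S100a8 than any saline young library.
Ngp had 3.11, 10.2 and 10.7 RPKM per 100 RPKM of S100a8 in BRL37344 old, 6.91, 4.21 and 5.45 in saline old, and 15.1, 23.4 and 22.1 in saline young. Camp had 3.77, 7.14 and 3.40 in BRL37344 old, 3.54, 3.45 and 1.24 in saline old, and 5.14, 8.09 and 16.9 in saline young. Ngp and Camp also had all saline old ratios below all saline young ratios. Wfdc21 ran the other way, with 1.55, 3.18 and 2.41 in BRL37344 old, 2.9997, 3.16 and 2.88 in saline old, and 1.91, 2.69 and 2.54 in saline young. Of 14 genes set against S100a8, 6 had saline old wholly below saline young (Mpo, Elane, Chil3, Camp, Ngp and Lcn2), 1 had it wholly above (Wfdc21) and 7 overlapped. All 6 were also wholly below in their own levels. The share of all genes that separate when set against S100a8 was not computed, so this count has no background to be read against.
Retnlg had 0, 8.23 and 6.01 RPKM per 100 RPKM of S100a8 in BRL37344 old, 6.70, 4.64 and 12.96 in saline old, and 9.42, 4.43 and 1.53 in saline young. Mmp9 had 0.424, 0.914 and 0.938 in BRL37344 old, 0.792, 0.570 and 1.62 in saline old, and 1.46, 1.003 and 0.175 in saline young. Saline young library 3 was therefore lowest in Mmp9 relative to S100a8, and lowest in Retnlg among libraries with a Retnlg signal. That library had the most S100a8, which is the divisor of these ratios. Its own levels, 15.1 RPKM of Mmp9 and 132 RPKM of Retnlg, were exceeded in BRL37344 old library 2 alone.

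**Figure D5:**
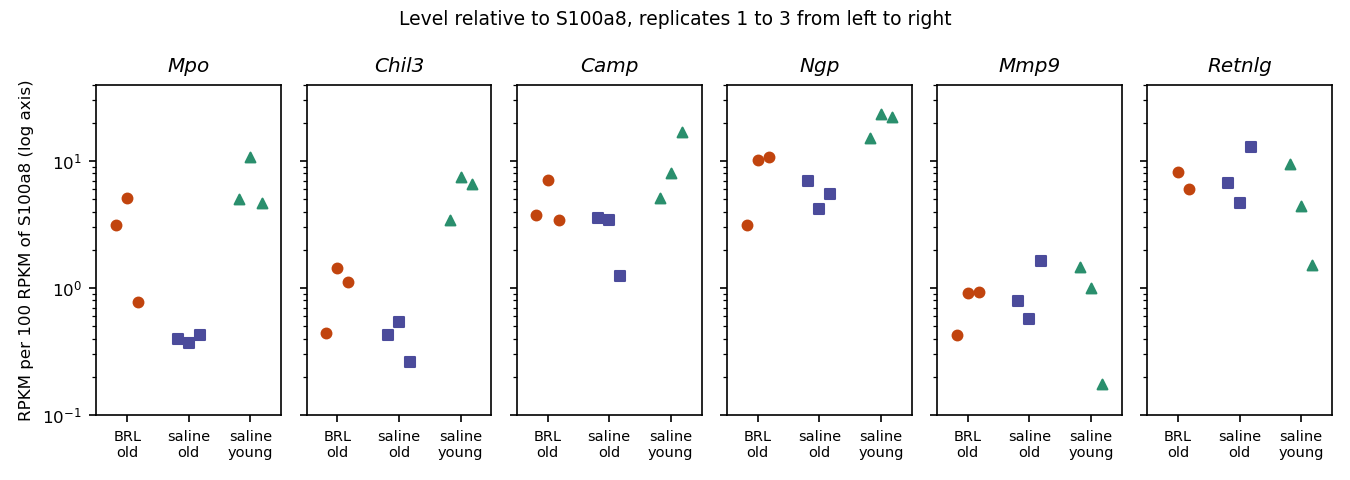
RPKM of 6 members per 100 RPKM of S100a8 (vertical, log axis) in the 3 groups, with 1 point per library, and Retnlg in BRL37344 old library 1 not drawn because it had no signal. Saline old lies below saline young for Mpo, Chil3, Camp and Ngp, and saline young library 3 is the lowest point for Mmp9 and Retnlg.

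Further genes of the pathway were described from 4 lists. Over all genes tested, 1.58% were called and 52.7% were negative in saline old against saline young. The share called was 0.769% in BRL37344 old against saline young and 0% in BRL37344 old against saline old. Of 20 other myeloid transcription factors, 14 were tested, and 1 rose and 0 fell in saline old against saline young, with 8 negative and a median log2 difference of -0.16. The factor that rose was Maf, a bZIP factor of macrophages and T cells, with 16.0, 12.3 and 7.27 RPKM in BRL37344 old, 10.4, 9.10 and 9.38 RPKM in saline old, and 1.02, 0.680 and 1.58 RPKM in saline young. Its difference was 2.70 ± 0.31 in saline old against saline young (limma adjusted p = 0.00187) and 2.93 ± 0.31 in BRL37344 old against saline young (limma adjusted p = 0.00172). Old libraries of both treatments lay wholly above saline young libraries for Maf.
Of 24 other myeloid receptors, 20 were tested, and 0 rose and 1 fell in saline old against saline young, with 15 negative and a median of -0.74. The receptor gene that fell was Csf2rb, the shared β chain of the receptors for interleukin 3, interleukin 5 and granulocyte-macrophage colony-stimulating factor, with 5.56, 4.26 and 4.99 RPKM in BRL37344 old, 5.24, 2.27 and 3.03 RPKM in saline old, and 8.19, 10.1 and 15.2 RPKM in saline young. Its difference of -1.56 ± 0.31 (limma adjusted p = 0.0399) was lost without any 1 of 7 libraries, all but BRL37344 old library 3 and saline old library 1 (limma adjusted p = 0.0571 to 0.160). Reads may be shared with its close copy Csf2rb2.
Of 37 other granule and oxidase genes, 26 were tested, and 0 rose or fell, with 18 negative and a median of -0.62. The smallest p was that of Mgst1, a microsomal glutathione transferase gene, at -1.18 ± 0.26 (limma adjusted p = 0.0613, and 0.00279 without BRL37344 old library 3). Of 26 other monocyte genes, 23 were tested, and 0 rose and 1 fell, with 21 negative and a median of -1.02. The gene that fell was Plac8, a small cysteine-rich protein of myeloid cells, with 42.4, 46.2 and 36.3 RPKM in BRL37344 old, 20.8, 32.3 and 36.4 RPKM in saline old, and 111, 135 and 193 RPKM in saline young. Plac8 differed by -2.27 ± 0.24 in saline old against saline young (limma adjusted p = 0.000995) and by -1.77 ± 0.24 in BRL37344 old against saline young (limma adjusted p = 0.00693).
In BRL37344 old against saline old, 0 genes of the 4 lists passed, and the medians were 0.21, 0.51, 0.10 and 0.34 in the order above. Of the transcription factors the smallest p belonged to Runx1, a factor required for the emergence of blood stem cells, which had 10.6, 10.4 and 9.20 RPKM in BRL37344 old, 5.15, 4.41 and 3.27 RPKM in saline old, and 8.74, 9.16 and 6.72 RPKM in saline young. Every BRL37344 old library was above every saline old library for Runx1, a difference of 1.16 ± 0.22 (limma adjusted p = 0.839). In the other lists the smallest p belonged to Il6ra, the interleukin 6 receptor gene, at 0.80, Mgst1 at 0.67 and Fcer1g, an Fc receptor signalling chain, at 0.68 (limma adjusted p = 0.839 for each). Without BRL37344 old library 3, Mgst1 rose by 1.03 (limma adjusted p = 0.0353). In BRL37344 old against saline young, Maf rose and Plac8 fell and no other gene of the 4 lists passed, with medians of 0.15, -0.07, -0.37 and -0.68. Where no gene of a list passed there, the smallest p belonged to Cd14, the lipopolysaccharide co-receptor, at 1.19 (limma adjusted p = 0.208) and Igfbp4, which binds insulin-like growth factors, at -0.55 (limma adjusted p = 0.231).

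Markers of other cell types were measured in the same libraries. B cell markers summed to 42.0 to 50.1 RPKM in BRL37344 old, 38.9 to 49.4 RPKM in saline old and 47.9 to 69.5 RPKM in saline young, with Pax5 without signal in all 9 libraries. T and NK cell markers summed to 6.57 to 17.6 RPKM in BRL37344 old, 6.34 to 13.5 RPKM in saline old and 5.09 to 6.08 RPKM in saline young. Erythroid markers summed to 34.2 to 163 RPKM in BRL37344 old, 48.8 to 174 RPKM in saline old and 47.4 to 133 RPKM in saline young. Megakaryocyte and platelet markers summed to 404 to 940 RPKM in BRL37344 old, 620 to 829 RPKM in saline old and 244 to 381 RPKM in saline young. The complement gene C1qa of macrophages, which is not a member, had 2.38, 19.0 and 10.8 RPKM in BRL37344 old, 4.51, 8.97 and 4.56 RPKM in saline old, and 7.32, 11.9 and 26.8 RPKM in saline young. Like most late members, C1qa was lowest in BRL37344 old library 1 and highest in saline young library 3 and BRL37344 old library 2, and its part in the members' results was not tested. C1qb, C1qc, Vcam1 and Mrc1 of the same list had the same lowest and highest libraries, and the rest of that list did not. Cd14 was highest in saline old library 1 (4.61 RPKM) and lowest in saline young library 2 (0.887 RPKM). Cd68 was lowest in saline old library 1 (10.1 RPKM).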

How the data were processed

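RNA from bone marrow HSCs was amplified with SMART-Seq v4 and made into libraries with Nextera XT, per the labels' protocols. Trim Galore, STAR 2.5.3a, Partek and mm10 are named in the submitters' processing notes, with no role or order. The authors deposited RPKM values per gene and library. This unit was read from the values, which are not whole. FPKM values would look the same. An offset of 0.0001 for every transcript had been added, and at least 58.8% of values stand at it (written as no signal in the text). Larger summed offsets were not counted in that share, such as that of Pax5, at 0.0037 in all 9 libraries. Depth was implied by value steps in 6021 single-transcript genes of 1000 bases or more (length reduced by 200 bases). Of the values worth 10 reads or fewer, 71.2% to 84.6% came within 0.05 of a whole read. Depth differed 3.69-fold, so low genes are less precise in shallow libraries. No reads were rebuilt and no count test was run.

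Sample titles gave the groups, since all descriptions end in 1 shared tag. The 18 unnamed value columns of a second sheet were not used, and its "Myeloid" heading names 6 of the members, so the study itself attended to them. Of 46628 rows, 2 named no gene (at most 0.000149% of a library's total) and were dropped, and 27 had date-like names.

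Values were analysed as log2(RPKM + 0.5) with limma 3.58.1 in R 4.3.3 (trend and robust empirical Bayes, all 9 libraries in 1 model, no covariate) for 13516 genes with at least 1 RPKM in 3 or more libraries. Adjusted p-values are Benjamini-Hochberg over these genes, with a threshold of 0.05. Fold changes of low genes are understated by the pseudocount. Correlations used exact permutation in numpy 2.4.6, with ranks from scipy 1.17.1. Scripts were tested on simulated data. The members, lists, pairs and tests were chosen with earlier results of these data known. All members are described. From each other list, called genes were named, up to 4 per comparison, or the gene with the smallest p where none was called. Alternatives were the pseudocount, the filter, scaling, sample weights, no trend, the replicate block, only the 2 groups compared, and each library left out. Leaving out the 2 libraries highest in neutrophil markers was added after seeing the data.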

Additional observations from a re-analysis of the deposited data

How the results depend on the processing

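The number of members called was 0 in each comparison under both other pseudocounts, both other filters, both other scalings and without the trend. For saline old against saline young it was 3 with sample quality weights (Ctsg, Mpo and Spi1), 1 with only the 2 groups compared (Ctsg), 2 without the 2 libraries highest in neutrophil markers (Mpo at -4.44, limma adjusted p = 0.00949, and Prtn3 at 1.04, limma adjusted p = 0.0114), and 0 to 2 when each library was left out. For BRL37344 old against saline young it was 1 without those 2 libraries (Prtn3 at 0.95, limma adjusted p = 0.0396) and 0 to 1 when each library was left out. In BRL37344 old against saline old the sign turned for S100a8 without those 2 libraries (-0.34) and for Retnlg with quality weights (0.17). When each library was left out, Retnlg ranged from -2.48 to 1.94 and S100a8 from -2.24 to 0.12 against saline young and from -0.34 to 2.03 against saline old. Of 30 members, 14 turned sign in at least 1 of 20 settings in BRL37344 old against saline old, 11 in BRL37344 old against saline young and 0 in saline old against saline young. Over all genes, the calls in saline old against saline young were 213 in the main analysis, 1284 with quality weights, 44 without the filter, and 82 without the 2 libraries.

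The correlation of Cebpa with Mpo was 0.679 with a pseudocount of 0.1, and no longer passed. Without the 2 farthest libraries, r was 0.583 for Cebpa with Mpo, 0.724 for Mpo with Ngp, 0.454 for Mpo with S100a8 and 0.814 for Csf1r with Mpo. As deviations from group means, r was 0.758 for Cebpa with Mpo, 0.979 for Mpo with Elane, 0.868 for Mpo with Ngp, 0.895 for Mpo with S100a8, 0.985 for Ngp with S100a8, 0.640 for Csf1r with Mpo and, with the sign turned, 0.116 for Csf3r with S100a8, none of which passed. The cause of these changes was not tested. Before adjustment, the smallest exact permutation p possible was 2.76e-06 with 9 libraries, 0.000198 with 7 and 0.00463 within groups.

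With the replicate number as a block, 0 members were called in each comparison, and all-gene calls were 174 in saline old against saline young, 0 in BRL37344 old against saline old and 92 in BRL37344 old against saline young. The numbers were not taken to pair libraries: deviations of same-numbered libraries correlated between -0.0517 and 0.190, and not every library correlated best with its own number. Csf2rb lost its call with the block (limma adjusted p = 0.0667), without the filter (0.286) and with only the 2 groups (0.079). Plac8 in BRL37344 old against saline young lost its call without the 2 libraries (limma adjusted p = 0.0743), and Maf lost its calls without the filter (0.0589 and 0.0639). Shallow libraries limit members under 1 RPKM, such as Cebpa and Gfi1.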

Other observations

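Jchain, the joining chain of secreted antibodies and a plasma cell marker, had 2.09, 263 and 6.16 RPKM in BRL37344 old libraries 1 to 3, 16.3, 2.76 and 0.928 RPKM in saline old, and 0.275, 263 and no signal in saline young. The 2 libraries high in Jchain were BRL37344 old library 2 and saline young library 2, while saline young library 3, the highest for S100a8, had none. The other plasma cell markers measured did not share this pattern. Sdc1 was highest in BRL37344 old library 1 (14.4 RPKM) and Xbp1 in saline young library 3 (229 RPKM). Prdm1 was highest in BRL37344 old library 2 (1.35 RPKM) but lowest in saline young library 2 (0.182 RPKM). Irf4 and Tnfrsf17 were highest in saline young library 2, but stayed under 1 RPKM in every library. The part of plasma cells in the Jchain values was not tested. F13a1, a monocyte gene for coagulation factor XIII, had 0.427, 5.65 and 0.917 RPKM in BRL37344 old, 0.321, 0.368 and 0.889 RPKM in saline old, and 0.740, 16.4 and 24.4 RPKM in saline young. Its 2 highest libraries were saline young 3 and saline young 2.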
